A study of Mus musculus with 144 samples.

Results

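Endothelial cells isolated from mouse liver at zeitgeber time (ZT, hours after lights on) 16 were compared between mice whose hepatocytes lacked both REV-ERB receptors and their controls. The comparison holds 6 of the series' 144 samples, 3 libraries of each genotype, chosen by the tissue, time and genotype in the sample labels. All mice are labelled male C57BL/6J on normal chow. Controls are labelled WT, and the other group carries the REV-ERB a/b double knockout, which the series describes as made in hepatocytes of adult animals. The matching columns are named GFP for controls and CRE for knockouts, so what was delivered differs along with the genotype, and their effects cannot be told apart. The feeding schedule of these mice is not given in the labels. Whether the 3 libraries of a group came from different animals is not labelled, and the p-values then measure only the spread between libraries, which may be technical. Whole liver and isolated Kupffer cells were sampled at the same hour in the same design. The series title names the question: how the hepatocyte clock and feeding act on the daily gene expression of the other liver cell types.

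The circadian clock is a transcriptional loop in which CLOCK and BMAL1, the product of Arntl, bind E-boxes and activate Per, Cry, Dbp and the REV-ERB genes Nr1d1 and Nr1d2. REV-ERB proteins in turn repress Arntl through sites they share with activating nuclear receptors. Liver sinusoidal endothelial cells form a fenestrated lining between blood and hepatocytes, clear waste by scavenger receptors such as stabilins, and send hepatocytes angiocrine signals. In this design the endothelial cells are not the cells in which the knockout was made.

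No gene differed between genotypes past the threshold when the 6 libraries were fitted with the other 18 endothelial libraries. Of 12525 genes tested with limma, 0 had a Benjamini-Hochberg adjusted p under 0.05 (percent called 0), and the smallest adjusted p was 0.119. The unadjusted p was under 0.05 for 1615 genes (12.9%), of which 845 (6.75%) were higher and 770 (6.15%) lower in knockouts. All 3 knockout libraries lay above all 3 controls in 1204 genes (9.61%) and below them in 1188 (9.49%). By value, 90.4% of genes differed by less than 1.5-fold. The median gene's difference had a 95% confidence interval of ± 0.41 on the log2(signal + 1) scale, so many differences of that size could not be detected.

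Calls were made when the spread was taken from fewer libraries. Fitting only the 6 ZT 16 libraries called 54 genes (0.431%), 24 higher (0.192%) and 30 lower (0.24%) in knockouts. Leaving out the knockout ZT 22 libraries 2 and 3 called 84 genes, 54 higher and 30 lower, and 23 genes were shared with the 54. Of the 24 libraries, the first of these has the highest share of the albumin transcript Alb, 2.40% of signal. The other has the highest slope of log2 signal on transcript GC content, 0.36 per 10 percentage points. How many were called depended on single libraries. Without control 1, 2 or 3 the 6-library fit called 234, 1 and 3 genes, and without knockout 1, 2 or 3 it called 80, 11 and 147. Of the 54, 53, 1 and 1 were still called without control 1, 2 or 3 and 27, 8 and 43 without knockout 1, 2 or 3, and all 54 kept their direction each time. The 1 call left without control 2 was Cxcl13. The genes called only in these smaller fits are named below as such, and those outside the set of smallest p-values were chosen after their values were seen.

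The libraries carried the markers of their label. Summed endothelial identity genes took 2.24, 1.92 and 2.12% of signal in controls 1 to 3 and 2.29, 2.42 and 2.27% in knockouts, and sinusoidal genes 2.89 to 3.33% in all 6. Across genes, log2 signal correlated at 0.964 to 0.981 within a genotype and at 0.959 to 0.972 between genotypes.

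The libraries differed in base composition. The slope of log2 signal on transcript GC content, in log2 units per 10 percentage points of GC, was -0.05, -0.08 and 0.01 in controls 1 to 3 and 0.33, 0.30 and 0.01 in knockouts 1 to 3. Knockouts 1 and 2 stood above the controls, while knockout 3 was beside them. Across 9156 genes, which are not independent replicates, the knockout difference correlated with GC content with r = 0.50 and with log2 length with r = -0.01. Its median ran from -0.13 over the 2289 genes lowest in GC to 0.23 over the 2289 highest. The 45S ribosomal precursor Rn45s took 5.01 to 5.02% of signal in controls and 8.67, 8.69 and 5.03% in knockouts. Each rank holds 1 fixed value in these quantile-normalised columns. The gap between these shares is therefore a change of rank, and its size in RNA is unknown. With each library's GC slope as a covariate, an alternative chosen after seeing the data, the 24-library fit gave 1179 genes with unadjusted p under 0.05 and 0 calls. The 6-library fit with it called 45 genes, 3 higher and 42 lower, of which 10 were among the 54.

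**Figure D1:**
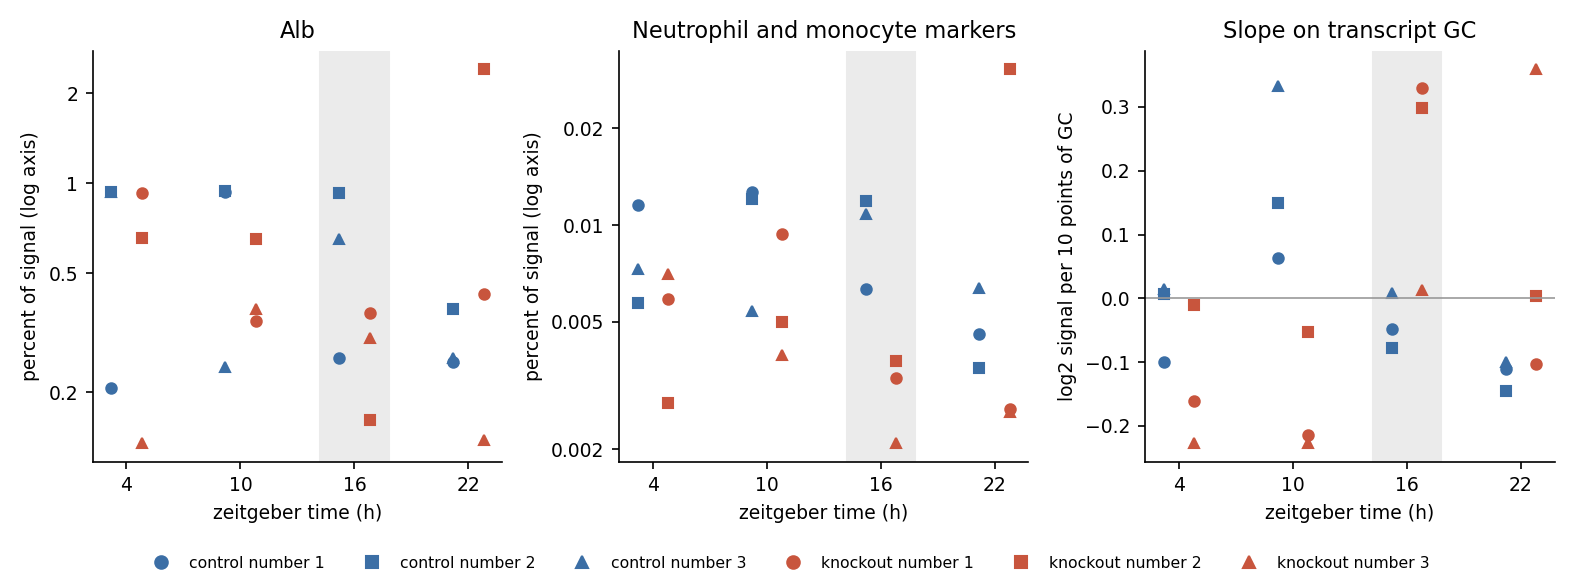
Share of signal of Alb and of the summed neutrophil and monocyte markers, and slope of log2 signal on transcript GC content, in each of 24 endothelial libraries by zeitgeber time in hours; colour is genotype and marker shape the library's number. At ZT 16 (shaded) the GC slope is 0.33 and 0.30 in knockouts 1 and 2 and 0.01 in knockout 3, the 3 knockouts have the lowest neutrophil and monocyte share, and Alb overlaps between genotypes.

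The ZT 16 levels of most clock genes overlapped between genotypes. Of 19 core clock genes tested, 0 were called in the 24-library fit, and the median difference was 0.14 against 0.001 for all genes. In controls the clock stood between phases at this hour: Arntl averaged 9.38 ± 3.66 (SD, n = 3) at ZT 10, 28.1 ± 3.18 at ZT 16 and 189.8 ± 37.7 at ZT 22. Dbp, an output gene in the opposite phase, averaged 562.6 ± 48.9, 48.4 ± 5.97 and 19.8 ± 1.97 at those times. In knockouts Arntl averaged 21.4 ± 18.96 at ZT 10 and 226.7 ± 30.9 at ZT 22, so it also differed widely between times.

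The promoters of Arntl and Tef are shown because their genes lay on opposite sides of the controls in each knockout library. RefSeq sequence on GRCm38.p6 from 250 bases before to 50 bases after the transcription start was searched on both strands for the E-box CACGTG, bound by CLOCK and BMAL1, and for AGGTCA, the core of the site bound by REV-ERB. Capitals mark the match. RefSeq gives 2 windows for each gene. Of these the Arntl window at chr7:113207261-113207560, the one with a match, and the Tef window at chr15:81802423-81802722 are printed, both on the plus strand.
Arntl: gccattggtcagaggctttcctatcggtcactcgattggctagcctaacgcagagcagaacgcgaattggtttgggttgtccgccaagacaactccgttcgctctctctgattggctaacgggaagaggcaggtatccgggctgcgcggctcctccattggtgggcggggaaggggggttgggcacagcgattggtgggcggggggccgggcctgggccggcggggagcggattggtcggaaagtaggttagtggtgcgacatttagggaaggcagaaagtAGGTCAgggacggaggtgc
Tef: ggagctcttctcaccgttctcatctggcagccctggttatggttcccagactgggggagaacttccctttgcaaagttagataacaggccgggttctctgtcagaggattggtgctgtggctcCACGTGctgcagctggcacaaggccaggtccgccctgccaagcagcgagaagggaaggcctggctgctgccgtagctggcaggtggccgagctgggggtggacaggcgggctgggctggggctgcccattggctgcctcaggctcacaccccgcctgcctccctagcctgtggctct
The printed Arntl window holds 1 AGGTCA and 0 CACGTG, and the printed Tef window 1 CACGTG and 0 AGGTCA. The other Arntl window, chr7:113207215-113207514, holds 0 of either, and the other Tef window, chr15:81811164-81811463, holds 1 CACGTG and 0 AGGTCA. Of the 16 clock genes with a window, 5 (31.2%) held CACGTG and 5 (31.2%) held AGGTCA in at least 1 window. The shares over the 9492 tested genes with a window were 11.6% and 15.2%, and over all 27025 genes 8.1% and 18.1%.

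Arntl read 24.4, 29.6 and 30.2 in controls 1 to 3 and 10.4, 14.9 and 61.7 in knockouts 1 to 3. Knockouts 1 and 2 lay below every control and knockout 3 above every control, so the group difference of -0.36 ± 0.51 (SE of log2; limma adjusted p = 0.809) describes none of them. Tef, a PAR bZIP factor with E-boxes, read 665, 518 and 649 in controls and 807, 833 and 441 in knockouts. Dbp, of the same family, read 45.2, 55.2 and 44.6 against 68.0, 131 and 23.9. In both genes knockouts 1 and 2 lay above all controls and knockout 3 below. Nr1d1 read 36.1, 36.2 and 38.7 in controls and 46.4, 57.8 and 16.2 in knockouts, the same arrangement. Since the deleted exons are not given and endothelial cells are not the targeted cells, these values do not check the deletion. For Nr1d2, 570, 552 and 506 in controls stood against 468, 591 and 273, with knockout 3 again the lowest.

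Knockout 3 thus stood apart from knockouts 1 and 2. In 13 of 19 clock genes it differed from them in the direction in which controls move from ZT 10 to ZT 22. Its root mean square log2 distance over the clock genes was 0.68 to the mean control at ZT 16, 1.07 to ZT 22 and 2.10 to ZT 10. For knockouts 1 and 2 the same distances were 0.74 and 0.73 to ZT 16, 1.68 and 1.76 to ZT 22, and 1.53 and 1.25 to ZT 10. All 3 were nearest to control ZT 16. The ZT 16 controls, each set against the mean of the other controls at that time, lay nearer, at 0.44 to 0.48. The cause of the split was not tested.

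**Figure D2:**
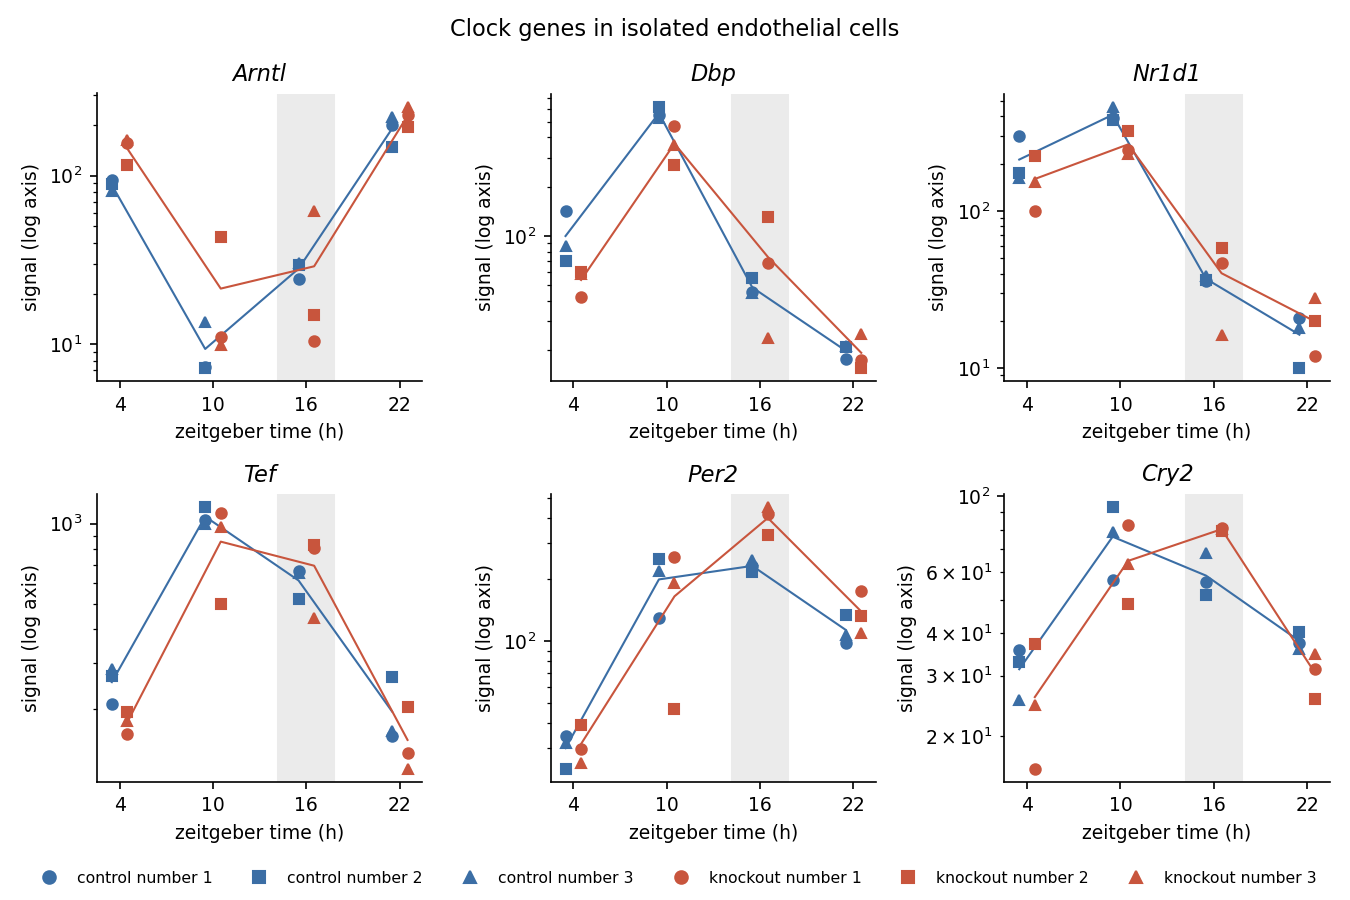
Signal (log axis) of 6 clock genes against zeitgeber time in hours in isolated endothelial cells; each point is a library, shape its number, lines join group means, and ZT 16 is shaded. At ZT 16 knockout 3 is above the controls in Arntl (61.7) and below them in Dbp (23.9), Nr1d1 (16.2) and Tef (441), while all 3 knockouts are above the controls in Per2 and Cry2.

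Per2 (NM_011066, mm9 chr1:93312559-93355905, minus strand) is a repressor of CLOCK and BMAL1 that also answers to glucocorticoids and temperature. Of the 19 clock genes it had the largest rise by value. It read 233, 217 and 248 in controls and 416, 330 and 451 in knockouts. The groups did not overlap. Its difference was 0.76 ± 0.43, with a limma adjusted p of 0.461 in the 24-library fit and 0.038 in the 6-library fit, and it stayed positive without any 1 of the 6 libraries, between 0.67 and 0.89. With the GC slope as a covariate it was 1.06 ± 0.50 (unadjusted p = 0.048). Knockout minus control was 0.06 at ZT 4, -0.54 at ZT 10 and 0.28 at ZT 22. In whole liver at ZT 16, Per2 went the other way by value, at 98.1, 132 and 95.4 CPM (read counts scaled to library size) in controls and 68.8, 77.2 and 85.0 in knockouts (edgeR quasi-likelihood adjusted p = 0.243). Kupffer cells read 230.0, 243 and 223 against 275, 253 and 233. The other clock gene with all knockouts above the controls was Cry2, a partner repressor, at 56.2, 51.6 and 68.4 against 81.0, 79.1 and 80.4 (0.45 ± 0.24, adjusted p = 0.439).

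Genes that define endothelium were higher by value in knockouts. Of 20 endothelial identity genes, 0 were called in the 24-library fit, 9 had an unadjusted p under 0.05 and a higher level (6.75% of all genes), 0 a lower one, and the median difference was 0.31, against 0.001 for all genes. All knockouts lay above all controls in 8 of the 20 (9.61% of all genes). The list's median transcript GC content was 52.9%, against 50% for all genes tested. Its mean level relative to the controls' mean was 0.31, 0.31 and 0.21 in knockouts 1 to 3 and 0.11, -0.03 and -0.07 in controls. Some abundant members overlapped between groups: Cdh5, the adherens junction cadherin, read 3417, 3477 and 3275 in controls and 3706, 3328 and 3592 in knockouts, and Kdr, the main VEGF receptor, 14223, 15489 and 13081 against 11997, 15489 and 11997. Equal values recur because each rank has 1 fixed value after quantile normalisation.

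Eng, a TGF-beta co-receptor, read 3209, 2605 and 3257 in controls and 5225, 4682 and 3986 in knockouts (0.61 ± 0.19, adjusted p = 0.215). Tie1, an angiopoietin receptor partner, read 1449, 1302 and 1256 against 1995, 2147 and 1665 (0.53 ± 0.14, adjusted p = 0.15). In both genes every knockout was above every control. With the GC slope as a covariate, Eng was at 0.24 ± 0.15 and Tie1 at 0.25 ± 0.11, smaller than without it. Ushbp1, expressed in endothelium, was called higher in the 6-library fit (adjusted p = 0.038), from 938, 902 and 915 to 1396, 1466 and 1249.

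Matrix, Notch and sinusoidal genes showed the same arrangement in part. Of 19 extracellular matrix genes, 18 were higher by value (6277 of the 12525 genes) and 7 did not overlap, all higher (9.61% of all genes), with a median of 0.22 and a median GC content of 55.3%. Lamb2, a basement membrane laminin chain, read 323, 267 and 387 in controls and 630, 677 and 496 in knockouts (0.89 ± 0.23, adjusted p = 0.158, and 0.038 in the 6-library fit). Col4a1, which encodes a chain of collagen IV, read 1492, 1604 and 1702 against 2476, 2424 and 2254 (0.58 ± 0.19, adjusted p = 0.225, and 0.038 in the 6-library fit). Neither group overlapped the other in these genes. With the GC slope as a covariate they were at 0.38 ± 0.14 and 0.27 ± 0.17. Col1a1, a fibrillar collagen of stellate cells and fibroblasts, read 20.8, 16.2 and 16 against 51.3, 102 and 24.6. Summed stellate markers took 0.466, 0.377 and 0.460% of signal in controls and 0.460, 0.387 and 0.444% in knockouts, which overlap, and their part in the Col1a1 difference was not tested.

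Of 20 tested angiocrine and Notch genes, 5 had an unadjusted p under 0.05, all higher (6.75% of all genes), and the median was 0.31. Notch1, the receptor that sets arterial and sinusoidal fate (NM_008714, mm9 chr2:26313422-26359342, minus strand), read 969, 975 and 965 in controls and 1530, 1449 and 1340 in knockouts. Its controls were nearly equal and every knockout lay above them (0.57 ± 0.14, adjusted p = 0.131, and 0.038 in the 6-library fit; 0.28 ± 0.11 with the GC slope as a covariate). Notch4 read 199, 203 and 221 against 383, 306 and 279. Hgf, the hepatocyte mitogen, was the list's member with all knockouts below the controls, at 1266, 1194 and 1133 against 1051, 1048 and 1098 (-0.17 ± 0.15). The zonation markers Wnt2, Wnt9b and Rspo3, which pattern the lobule from the central vein, overlapped between genotypes; Wnt2 read 876, 556 and 556 against 893, 709 and 768.

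Among 19 sinusoidal genes the median was 0.00, with 5 at an unadjusted p under 0.05 higher (6.75% of all genes) and 2 lower (6.15%). Stab1, a scavenger receptor, read 8299, 7273 and 8740 in controls and 14223, 11997 and 10213 in knockouts (0.57 ± 0.18, adjusted p = 0.208; 0.21 ± 0.13 with the GC slope). Its relative Stab2 overlapped, at 24679, 20095 and 20095 against 20095, 24679 and 24679. Maf, a transcription factor of sinusoidal identity, was lower in every knockout, at 3542, 3144 and 2867 against 2424, 2785 and 2314 (-0.34 ± 0.14, adjusted p = 0.291).

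**Figure D3:**
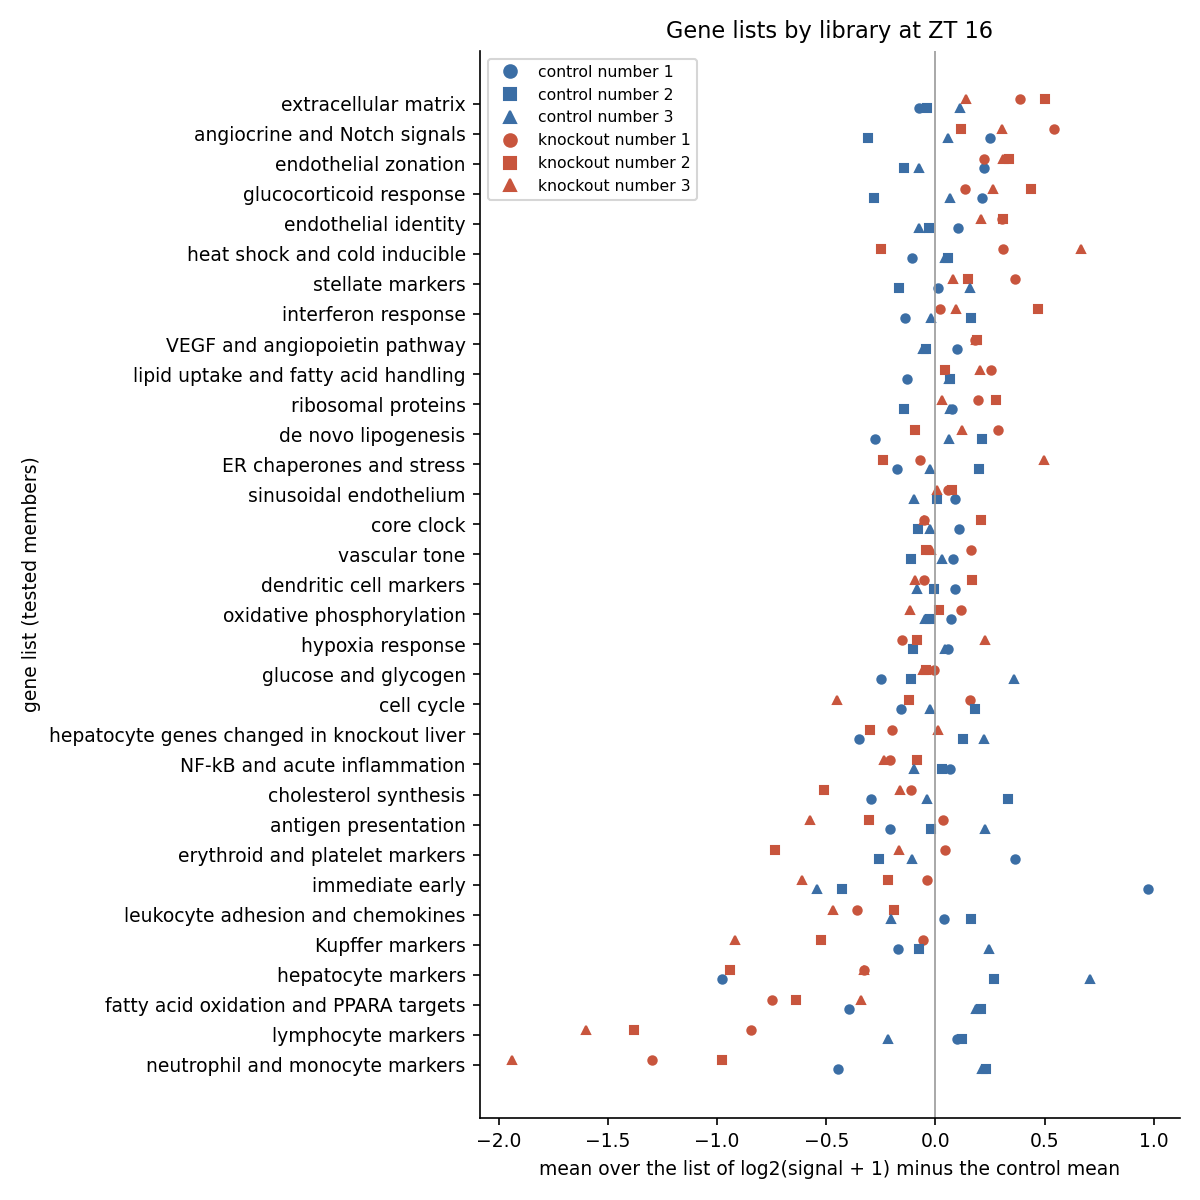
Mean over the tested members of each gene list of log2(signal + 1) minus the mean of the 3 control libraries at ZT 16; each point is a library. Knockouts 1 to 3 lie at -1.30, -0.98 and -1.94 in neutrophil and monocyte markers and at -0.85, -1.38 and -1.60 in lymphocyte markers, below all controls, while endothelial identity lies at 0.31, 0.31 and 0.21. The first 2 of these lists have 7 and 5 tested members, and a gene can pass the filter on low values through its high group alone.

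Several genes known from leukocytes were called lower in the 6-library fit. Its 30 lower genes include, picked after their values were seen, Ptprc (CD45), Itgam (CD11b), Cybb, Ikzf1, Plek, Lair1, Ccr1, Il1b, S100a8 and Marco. Cxcl13, a B cell chemokine (NM_018866, mm9 chr5:96385958-96390087, plus strand), had the smallest adjusted p of that fit, 0.0049. It read 194, 157 and 197 in controls and 69.8, 67.9 and 54.4 in knockouts, without overlap (-1.50 ± 0.35, adjusted p = 0.131 in the 24-library fit). With the GC slope as a covariate it was -1.69 ± 0.42. Ptprc, carried by all leukocytes, read 419, 547 and 518 against 297, 218 and 180 (-1.11 ± 0.30, adjusted p = 0.183, and 0.038 in the 6-library fit).

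Of the marker lists of leukocytes that a preparation can carry, neutrophil and monocyte, lymphocyte and Kupffer markers were mostly lower by value and dendritic cell markers were not. Of 9 dendritic cell markers 5 were tested, 4 higher and 1 lower, with a median of 0.19. The lower one, at -1.14, did not overlap (9.49% of all genes) and had a limma unadjusted p under 0.05 (6.15% of all genes). Of the higher ones 1 did not overlap (9.61% of all genes). The contrast with the other lists was not tested. Their mean level relative to the controls' mean was -0.05, 0.17 and -0.09 in knockouts and 0.09, -0.0049 and -0.08 in controls, which overlap. Of 14 neutrophil and monocyte markers, 7 passed the filter on low values. These 7 were lower by value, 5 without overlap (9.49% of all genes are lower without overlap), with a median of -1.37; a gene can pass the filter through its high group alone. S100a8, an alarmin of neutrophils, read 63.8, 149 and 120 in controls and 19.8, 25.0 and 16.5 in knockouts (-2.32 ± 0.99, adjusted p = 0.333, and 0.029 in the 6-library fit). Cxcr2, the neutrophil chemokine receptor, read 18.3, 18.0 and 18.5 against 5.36, 7.68 and 6.31. Both separated the groups. Ly6g, Elane and Mpo, which also mark neutrophils and their precursors, were at or near 0 in all 6 libraries. The summed list took 0.0063, 0.0119 and 0.0108% of signal in controls and 0.0033, 0.0038 and 0.0021% in knockouts.

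Of 16 lymphocyte markers 5 were tested. These 5 were lower by value, 3 without overlap (9.49% of all genes are lower without overlap), with a median of -1.75. Here too a gene can pass the filter on low values through its high group alone. Gzma, a granule protease of NK cells, read 24.9, 37.8 and 37.0 in controls and 10.1, 14.5 and 4.79 in knockouts (-1.75 ± 0.48, adjusted p = 0.174). The NK receptor genes Ncr1 and Klrb1c also separated, Ncr1 at 10.7, 12.3 and 8.75 against 4.01, 0.95 and 2.10. Cd79b and Jchain, the other tested members, overlapped between genotypes. T cell genes were at low levels throughout: Cd3e read 3.24, 0.36 and 3.32 against 0, 0 and 0.04. Whether fewer leukocytes were in the preparation or each held less of these RNAs cannot be told apart in bulk libraries.

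Kupffer cell markers were lower by value in 15 of 16, with a median of -0.53. All knockouts lay below all controls in 5 (9.49% of all genes) and above them in 1. Marco, a scavenger receptor, read 170, 178 and 172 in controls and 86.7, 95.8 and 66.4 in knockouts (-1.07 ± 0.59, adjusted p = 0.459, and 0.029 in the 6-library fit). Vsig4, a complement receptor, read 1278, 1256 and 1730 against 1118, 695 and 678. The defining marker Clec4f overlapped, at 2773, 3268 and 3969 against 3342, 2132 and 1837. As a share of signal the list took 0.431, 0.454 and 0.578% in controls and 0.483, 0.330 and 0.275% in knockouts, so knockout 1 lay among the controls. Id3, in the list but also expressed by endothelium, went the other way, at 446, 326 and 407 against 734, 675 and 582. With the mean myeloid marker level as a covariate, chosen after seeing the data, 1302 genes had an unadjusted p under 0.05 and 0 were called.

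Genes of leukocyte adhesion and antigen presentation went both ways. Of 18 antigen presentation genes 8 were higher and 10 lower by value, with a median of -0.26. Without overlap, 1 lay above the controls (9.61% of all genes) and 2 below (9.49% of all genes). Among 19 adhesion and chemokine genes the median was -0.18. At an unadjusted p under 0.05, 3 were lower (Il1b, Ccl5, Il1a; 6.15% of all genes) and 1 higher (Ly6a; 6.75% of all genes). Il1b read 172, 128 and 106 in controls and 62.1, 61.1 and 39.3 in knockouts. Cd274, which encodes the checkpoint ligand PD-L1, was among the genes of smallest p, at 109.8, 136 and 117 against 47.98, 97.0 and 50.4 (-0.95 ± 0.22, adjusted p = 0.119). Without knockout 2 it was called in the 24-library fit, at -1.28 (adjusted p = 0.016), beside Serpina3f. Of 22 interferon response genes, 18 were higher by value, 6 without overlap (9.61% of all genes) and 1 with an unadjusted p under 0.05 (6.75% of all genes), with a median of 0.16; Ifit1 read 86.9, 89.1 and 68.4 against 106, 184 and 141 (0.79 ± 0.34, adjusted p = 0.34).

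The 10 genes of smallest p among those higher in knockouts were Rgs3, Abca7, Pdlim7, Flywch1, Itpr3, Cdc42ep1, Als2cl, Mfge8, Adam15 and Ip6k1, all with an adjusted p of 0.119. Pdlim7, an actin-associated LIM protein, read 57.6, 57.7 and 44.4 in controls and 115, 99.3 and 102 in knockouts (0.98 ± 0.20). Abca7, a lipid transporter, read 282, 263 and 262 against 499, 442 and 420 (0.75 ± 0.15). Rgs3, which shortens G protein signalling, read 624, 561 and 597 against 801, 776 and 844 (0.44 ± 0.09), with knockout 3 the highest. None of the 3 genes overlapped between groups. With the GC slope as a covariate they were at 0.77 ± 0.22, 0.47 ± 0.14 and 0.39 ± 0.10.

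The 10 of smallest p among those lower were Actr3, Arpc2, Naa50, Treml4, Fgf1, Atp8a1, Nmd3, Cd274, BC005537 and Mgat4a, with adjusted p-values from 0.119 to 0.126. Actr3 and Arpc2 encode subunits of the Arp2/3 complex, which nucleates branched actin. Actr3 (NM_023735, mm9 chr1:127289482-127332304, minus strand) read 605, 606 and 587 in controls and 466, 436 and 396 in knockouts (-0.47 ± 0.09). Arpc2 read 680, 725 and 643 against 568, 528 and 484 (-0.38 ± 0.08). Both differences were nearly as large with the GC slope as a covariate, at -0.43 ± 0.10 and -0.38 ± 0.09. Naa50, an N-terminal acetyltransferase, read 409, 424 and 399 against 280, 286 and 283 (-0.53 ± 0.12), the tightest pair of groups among them. Fgf1, a growth factor, read 180, 214 and 149 against 87.4, 115 and 72.9, and Treml4, a myeloid receptor, 117, 145 and 135 against 79.4, 56.7 and 39.6.

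**Figure D4:**
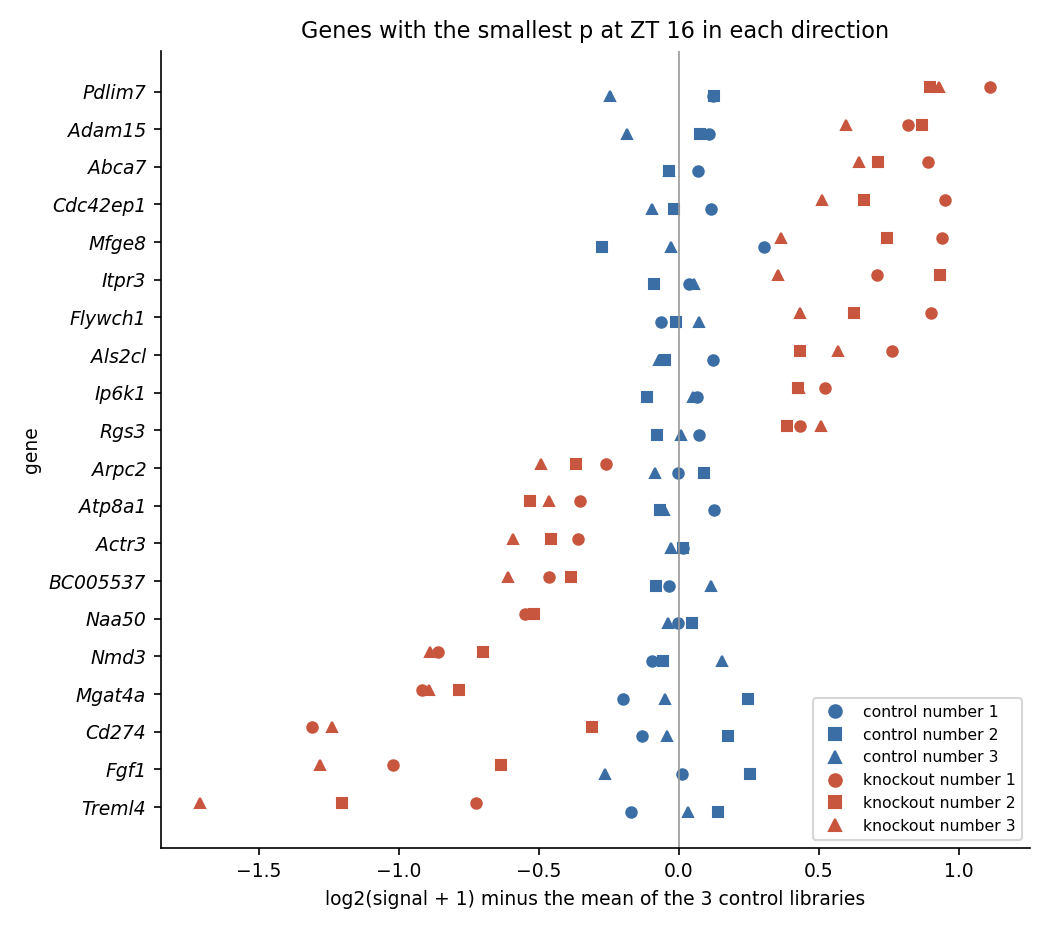
The 20 genes with the smallest p in each direction, as log2(signal + 1) minus the mean of the 3 control libraries; each point is a library. The groups do not overlap in any of them, which their choice by p makes likely. Knockout 3 is the lowest knockout for genes of both directions, among them Abca7, Flywch1, Itpr3 and Mfge8 (higher) and Actr3, Arpc2, Fgf1 and Treml4 (lower). For Rgs3 it is the highest.

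Lipid and energy genes were split by function. Of 19 lipid uptake and handling genes, 6 had an unadjusted p under 0.05 and a higher level (6.75% of all genes). A lower one was seen in 1 (6.15% of all genes), and the median was 0.22. Slc27a3, of the fatty acid transport family, read 14.7, 8.03 and 6.81 in controls and 27.7, 29.1 and 33.1 in knockouts (1.58 ± 0.33, adjusted p = 0.119), but its mean was under the level required for the leading genes. Gpihbp1, which holds lipoprotein lipase on capillary endothelium, read 1814, 1468 and 1680 against 2605, 2175 and 2300 (0.51 ± 0.17, adjusted p = 0.225). Lpl, the lipase itself, was lower, at 182, 249.9 and 250.7 against 157, 132 and 103 (-0.80 ± 0.30, adjusted p = 0.271), whereas in whole knockout liver it was called higher at 3.08 (edgeR adjusted p = 1.70e-07). Fabp4, a fatty acid chaperone of capillaries, read 709, 595 and 637 against 848, 952 and 1494, highest in knockout 3.

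Fatty acid oxidation and PPARA target genes had a median of -0.32 over 19 genes, and 7 did not overlap, all lower (9.49% of all genes). At an unadjusted p under 0.05 there were 3, all lower (6.15% of all genes). Acaa1b, a peroxisomal thiolase most abundant in hepatocytes, read 42.2, 84.5 and 84.0 against 12.3, 19.1 and 23.2 (-1.87 ± 0.76, adjusted p = 0.31, and 0.038 in the 6-library fit). Acadl, a mitochondrial dehydrogenase, read 192, 206 and 193 against 163, 154 and 156 (-0.32 ± 0.12, adjusted p = 0.253). Cholesterol synthesis genes had a median of -0.43 over 24, with 19 lower by value, but control 2 was the high library: Sqle, an oxygenase of the pathway, read 21.0, 53.4 and 26.5 against 30.9, 14.3 and 19.2 and overlapped. Immediate early genes had 0 of 20 at an unadjusted p under 0.05 and turned on control 1, in which Fos read 968 against 47.2 and 68.9 in the other controls and 84.3, 68.2 and 25.7 in knockouts. Of 18 heat shock and cold inducible genes, 0 had an unadjusted p under 0.05.

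The remaining lists also had 0 calls each in the 24-library fit. Of 18 VEGF and angiopoietin genes, 4 had an unadjusted p under 0.05, all higher (6.75% of all genes), with a median of 0.23. Pdgfb, the growth factor that recruits mural cells, read 21.4, 10.2 and 20.2 in controls and 39.6, 38.8 and 31.9 in knockouts (1.11 ± 0.45, adjusted p = 0.301). Vascular tone genes had a median of 0.03 over 16, with 3 at an unadjusted p under 0.05, all higher (6.75% of all genes). Among them was Ece1, which matures endothelin, at 0.45 ± 0.11 (adjusted p = 0.13). Glucocorticoid response genes had a median of 0.18 over 13, with 3 higher (6.75% of all genes) and 0 lower at an unadjusted p under 0.05. One of these was Ddit4, an inhibitor of mTORC1, at 40.6, 31.2 and 46.4 against 50.1, 99.1 and 112. Medians were 0.14 for de novo lipogenesis, 0.02 for glucose and glycogen, 0.05 for ER chaperones, -0.20 for cell cycle, -0.03 for hypoxia, 0.21 for ribosomal proteins and -0.01 for oxidative phosphorylation genes.

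Hepatocyte RNA was present in every library. Alb (NM_009654, mm9 chr5:90889896-90905628, plus strand), the albumin transcript that takes 6.89 to 11.4% of counts in whole liver at ZT 16, read 9809, 35198 and 24679 in endothelial controls and 13824, 6040 and 11399 in knockouts. This was 0.260, 0.931 and 0.653% of signal against 0.368, 0.161 and 0.303%, and ranks 19, 5 and 6 against 13, 31 and 16 among all genes. Controls 2 and 3 were the highest, and control 1 lay below knockouts 1 and 3. The difference was -1.05 ± 0.95 (limma adjusted p = 0.669). It ranged from -1.58, without control 1, to -0.66, without control 2, and was -0.54 with the GC slope as a covariate. The sum of 22 hepatocyte markers took 0.489, 1.63 and 1.48% in controls and 0.796, 0.408 and 0.717% in knockouts. Its log2 ratio of means was -0.91 (two-sided exact permutation p = 0.3, where 3 against 3 cannot go below 0.1), and it ranged from -1.28 to -0.62 without each library in turn. By value 20 of the 22 markers were lower, with a median of -0.51.

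Some hepatocyte genes were lower in knockouts beside this share. Of the 54 genes of the 6-library fit, Acaa1b, Cyp4a12a and Saa4 are best known from hepatocytes; Cyp4a12a read 16.1, 18.7 and 25.8 against 2.45, 3.38 and 1.05. Saa1, an acute phase gene, read 37.7, 13.2 and 42.4 against 6.85, 4.91 and 0, and was called lower in liver at -3.98 (edgeR adjusted p = 0.0242). What hepatocyte RNA contributes to these endothelial differences was not tested. The mean hepatocyte marker level was also used as a covariate, an alternative chosen after seeing the data. With it, 1678 genes had an unadjusted p under 0.05 in the 24-library fit and 0 were called.

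More genes were called in whole liver, from a separate table of counts. At ZT 16, edgeR called 420 of 12536 genes (3.35%) in livers of mice fed ad libitum, 206 higher (1.64%) and 214 lower (1.71%). As 0 genes were called in the 24-library endothelial fit, the lack of a call there does not set any liver gene apart. Values are given instead. Npas2, a CLOCK paralogue repressed by REV-ERB, rose by 6.90 ± 0.47 in liver (adjusted p = 7.21e-14), from 0.30, 0.17 and 0 CPM to 18.5, 20.6 and 24.4, while endothelial libraries read 0.55, 1.57 and 2.32 against 1.31, 1.98 and 3.81. Loxl4, a lysyl oxidase, rose by 5.22 ± 0.32 in liver, from 3.28, 1.03 and 4.19 CPM to 116, 99.2 and 107. In endothelial cells it read 59.9, 62.6 and 59.0 against 72.9, 65.2 and 69.4 (0.19 ± 0.21, adjusted p = 0.744). Cyp17a1 was higher in both: it rose by 3.24 ± 0.50 in liver (edgeR adjusted p = 4.93e-05). In endothelial cells it was at 2.84 ± 0.75 with the GC slope as a covariate (limma unadjusted p = 0.0011). Arntl rose by 1.02 ± 0.15 in liver (adjusted p = 4.46e-06) without the split between knockouts seen in endothelial cells, at 37.1, 39.9 and 40.9 CPM against 21.8, 14.4 and 21.9.

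Of 365 genes called in liver and tested in endothelial cells, 59 (16.2%) had an endothelial unadjusted p under 0.05, against 13.4% of the 11425 genes tested in both, and 2 were among the 54. Of the 103 that changed at least 2-fold in liver, 23 (22.3%) did, 21 in the direction of liver. Over all genes tested in both, 963 of the 1534 with an endothelial unadjusted p under 0.05 went in the direction of liver. Several of the lower ones are abundant hepatocyte transcripts, such as Car3 (endothelial mean 200.05 ± 125 SD in controls, -1.91, liver -1.49) and Ces1d (mean 272 ± 172 in controls, -2.55, liver -1.71). A list of 17 hepatocyte genes known from earlier results to change in knockout liver is not independent of the liver result. Of its members 11 were tested in endothelial cells, with a median of 0.19. At an unadjusted p under 0.05, 1 was higher (6.75% of all genes) and 3 lower (6.15%). Of the 23, the 2 in the opposite direction to liver were Lpl and Camk1d, a calcium-dependent kinase. In Kupffer cells 0 of 12271 genes were called (percent called 0) and 371 (3.02%) had an unadjusted p under 0.05. Fitting only the 6 ZT 16 Kupffer libraries called 51 genes, all lower, beside the 54 of the endothelial fit of that form. The Kupffer table was normalised separately, and the gap to the endothelial 12.9% was not tested.

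**Figure D5:**
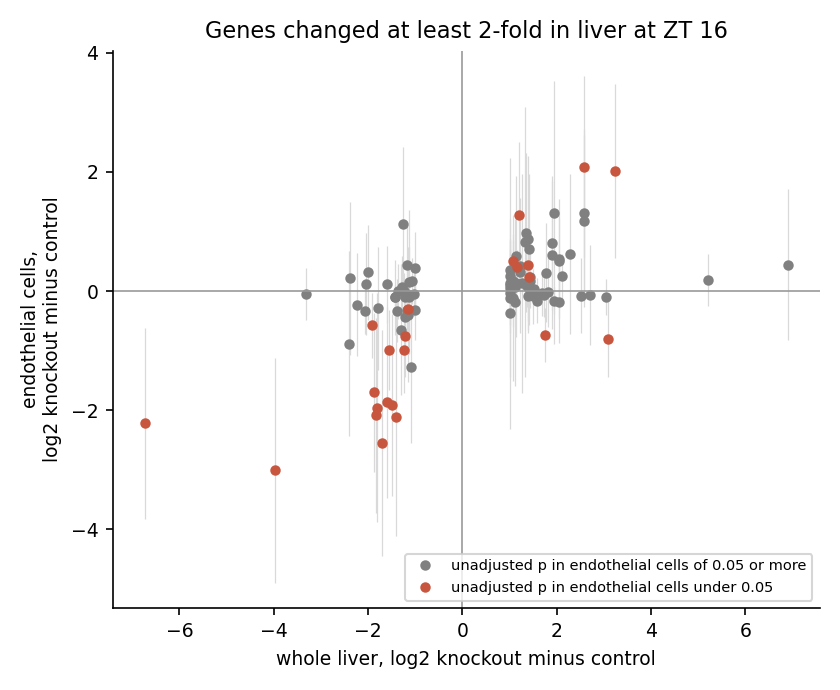
Knockout minus control at ZT 16 in endothelial cells (log2 of signal + 1, bars are 95% confidence intervals) against whole liver (log2, edgeR) for the 103 genes called and changed at least 2-fold in liver. Of the 23 genes with an unadjusted endothelial p under 0.05 (red), 21 lie in the direction of liver, against 963 of 1534 over all genes tested in both.

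The ZT 16 difference was set against the mean difference at ZT 4, 10 and 22 in the same fit. Of 12525 genes 0 were called (percent called 0), with a smallest adjusted p of 0.0522 and 1789 (14.3%) at an unadjusted p under 0.05. Without the knockout ZT 22 libraries 2 and 3, 422 genes were called, 312 more positive at ZT 16 and 110 more negative. Without ZT 16 knockout 3 the count was 51, 48 of them positive. The 5 smallest p-values in each direction belonged to Flywch1, Ip6k1, Abca7, Als2cl and Adam15, and to Actr3, Gspt1, Lilr4b, Ppp2cb and Cd274. Abca7 shows the pattern: its knockout minus control difference was 0.75 at ZT 16 and -0.26, -0.67 and 0.41 at ZT 4, 10 and 22. For Actr3 the differences were -0.47 at ZT 16 and 0.12, 0.27 and 0.01 at the other times. The GC slopes moved with this contrast too: at ZT 10 the controls were the higher group and at ZT 16 the knockouts. With the slope as a covariate, 1031 genes had an unadjusted p under 0.05 and 0 were called.

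In controls alone, ZT 16 was marked by few genes. Against the mean of the other control times, 18 genes (0.144%) were called, 10 higher and 8 lower. Wee1, a clock-driven cell cycle kinase, was higher by 2.06 (limma adjusted p = 0.000632) and Cry1 by 1.34 (adjusted p = 5.4e-05). Thrsp, a lipogenic gene, was higher by 1.27 (adjusted p = 0.0094), and Mt1, a metallothionein, lower, at -0.88 (adjusted p = 0.025). Cry1 was at 175, 173 and 151 in controls and 188, 184 and 174 in knockouts, so its ZT 16 level overlapped. Mt1 read 96.0, 52.3 and 71.5 in controls against 142, 128 and 85.4 (0.70 ± 0.20, adjusted p = 0.199). These libraries are the same controls as in the genotype comparison.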

How the data were processed

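RNA of isolated endothelial cells was analysed from the table the authors deposited, 1 column per library. The authors deposited a signal that reads as quantile-normalised: every one of the 24 columns holds the same sorted values. No label states this step, and the depth is unknown. The Kupffer table is alike. The liver values are expected counts per transcript deposited by the authors, rounded here, with 6333084 to 10367466 per library at ZT 16. STAR, HOMER and mm9 come from the submitters' processing notes; no settings are given in the sources used. The transcript with the largest mean was kept for each of 24421 symbols.

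A count test could not be used for the signal. Its log2(value + 1) was tested with limma 3.58.1 (trend, robust), keeping genes that reached 10 in 3 or more libraries, in 1 fit of 8 groups of 3 libraries. Adjusted p under 0.05 is called. Liver was tested with edgeR 4.0.16 (quasi-likelihood, TMM, filterByExpr, 48 libraries). Named are the clock genes, Alb, up to 3 called members per list, the 10 smallest p each way with mean log2 of at least 5, and the 5 smallest each way against the other times. The comparison, lists and alternatives were chosen with earlier results of these data known; the list of hepatocyte genes changed in knockout liver came from them. Other genes were named after their values were seen. Fits were tested on simulated data. Some members of the gene lists are not reported here by name.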

Additional observations from a re-analysis of the deposited data

How the results depend on the processing

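The 0 calls of the 24-library fit (limma, 1615 genes at unadjusted p under 0.05) were also 0 with a pseudocount of 0.5 or 5, no filter, a mean of at least 50, the longest transcript, no trend, and the GC, hepatocyte or myeloid covariate. They became 54 with only the 6 ZT 16 libraries, 84 without knockout ZT 22 libraries 2 and 3, and 0 to 2 without each ZT 16 library. Against the other times the 0 calls became 2 with a mean of at least 50 (Actr3, Flywch1), 422 without the ZT 22 pair and 0 to 51 without each library. The 18 control calls became 34 with a mean of at least 50, 96 without the ZT 22 pair and 6 to 13 without each control. The 54 ranged from 1 to 234 without each library. The 420 liver calls ranged from 279, without knockout 1, to 399, with 464 by DESeq2, and the 0 Kupffer calls became 1 (Vmn2r120) with no filter and 51, all lower, in 6 libraries. Apart from the library counts, the cause was not tested.

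Whether replicate numbers pair the samples is not labelled. Same-numbered deviations correlated at 0.02, -0.12 and 0.05, within the range of differently numbered ones, -0.16 to 0.16. With 3 libraries in each group these values cannot settle it. With the replicate block the counts were 6 (Cxcl13, Kctd12, Lair1, Plek, Ptprc lower and Slco2b1 higher), 8 for the control calls and 3 for the 6 libraries (Acaa1b, Cxcl13, S100a8); a block of replicates changed no other count by over 1.5 times.

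Clock differences changed sign. Without each library Arntl ranged from -1.10 to 0.12, Bhlhe40 from -0.50 to 0.0066, Bhlhe41 from -0.16 to 0.53, Ciart from -0.28 to 0.15, Clock from -0.10 to 0.16, Dbp from -0.25 to 0.96, Hlf from -0.16 to 0.42, Nr1d1 from -0.41 to 0.48, Per1 from -0.11 to 0.70 and Tef from -0.024 to 0.43. With the GC covariate Dbp was at -0.050 and Ciart at 0.11, and with the myeloid covariate Clock was at -0.12 and Nr1d1 at 0.35.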
